A study of Mus musculus with 12 samples.

Results

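Adding CpG to IFNα changed the mRNA of mouse follicular (FO) B cells broadly. Il6, Myc and all 36 tested genes of nucleolar ribosome assembly rose, while 12 of 14 tested MHC class II genes, 19 of 27 genes of the B cell receptor and its coreceptors, and 37 of 54 tested interferon-stimulated genes fell. Of all genes tested, 18.7% rose and 25.5% fell. The comparison is between 3 libraries of FO B cells stimulated with CpG + IFNα and 3 libraries stimulated with IFNα alone, 6 of the 12 libraries in the series, taken by their labels. All 9431 genes with enough counts to test, of 22561 in the table, were compared.

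The cells were FO B cells sorted from spleens of 10-week-old C57BL6 mice as B220hi AA4.1- CD23+ CD21mid, so the groups share strain, cell type and sort. Both groups were stimulated for 12 h, and both received IFNα, a type I interferon. They differ by the CpG oligonucleotide ODN1826, an agonist of the DNA sensor TLR9, so neither group shows cells without interferon. The other 6 libraries, 3 unstimulated and 3 stimulated with CpG alone for 12 h, entered the same fit and are used to ask whether the effect of CpG was different without IFNα, and as reference levels. No time was given for the unstimulated cells.

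FO B cells are the resting, recirculating B cells of the spleen and lymph nodes. TLR9 sits in endosomes and, once it binds unmethylated CpG DNA, signals through MyD88 to NF-κB, which drives cytokine genes, survival genes and the start of growth. IFNα acts through its receptor and a complex that holds STAT2 and IRF9, which turns on a set of antiviral genes through a DNA element called the ISRE. A B cell that leaves rest enlarges first, with more ribosomes and metabolic enzymes, and copies its DNA later.

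Libraries were made by BRB-seq, in which each mRNA is tagged near its 3′ end and each molecule is counted once. The 12 libraries held 922450 to 2923865 counts, with 1067324 to 1689570 under IFNα and 1884673 to 2923865 under CpG + IFNα. Replicate 2 was the deepest library of each of the 2 groups with IFNα. Levels are given as counts per 1000000 counts of the library (CPM). The library total was taken over the genes tested and scaled by its TMM normalization factor. A level is thus relative and can fall because other mRNAs take a larger share. In bulk samples, fewer cells carrying an mRNA and less of it per cell cannot be told apart. Mitochondrial genes took 5.91% to 8.52% of the counts under IFNα and 2.99% to 3.52% under CpG + IFNα.

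All 8 B cell markers checked were detected, and their summed level was 7117 to 8015 CPM under IFNα and 1209 to 1321 CPM under CpG + IFNα. Of the markers of other cells, 3 of 6 T cell, 3 of 3 natural killer cell and 4 of 7 myeloid markers found in the table were at 0 counts in all 6 libraries, Cd3d, Cd3g and Cd8a among them. Lck, a Src family kinase used here as a T cell marker, was at 38.9 to 50.4 CPM under IFNα and 3.27 to 5.65 CPM under CpG + IFNα, while Trac, a T cell receptor chain, had 8 and 15 counts summed over the libraries of each group. Adgre1, which encodes the macrophage marker F4/80, had 8, 11 and 17 counts under IFNα and 0 in every CpG + IFNα library. Erythroid markers summed to 335, 85.1 and 15.3 CPM in IFNα replicates 1, 2 and 3, and to 72.0, 21.7 and 5.65 CPM in the CpG + IFNα replicates. Whether RNA of these other cells has any part in the results below was not tested.

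A differentially expressed gene (DEG) was one with a Benjamini-Hochberg adjusted p below 0.1 in edgeR's quasi-likelihood test and a change above 2-fold, the cutoffs used throughout, and "rose" and "fell" are kept for DEGs. CpG added to IFNα gave 4175 DEGs, 44.3% of the genes tested. Of these, 1767 (18.7% of the genes tested) were higher and 2408 (25.5%) were lower with CpG. The median log2 fold change over all genes tested was -0.07. Shares of a gene list given below are read against these 18.7% and 25.5%. Lower genes moved further: 588 fell by more than 3 on the log2 scale and 130 rose by as much. The 3 values of each group did not overlap for 1747 of the higher and 2344 of the lower DEGs, and for 6832 of all genes tested (72.4%). The higher DEGs together made up 9.37% of the summed mean CPM of all genes tested under IFNα and 32.4% under CpG + IFNα. The share of the lower DEGs went from 37.1% to 9.38%.

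**Figure D1:**
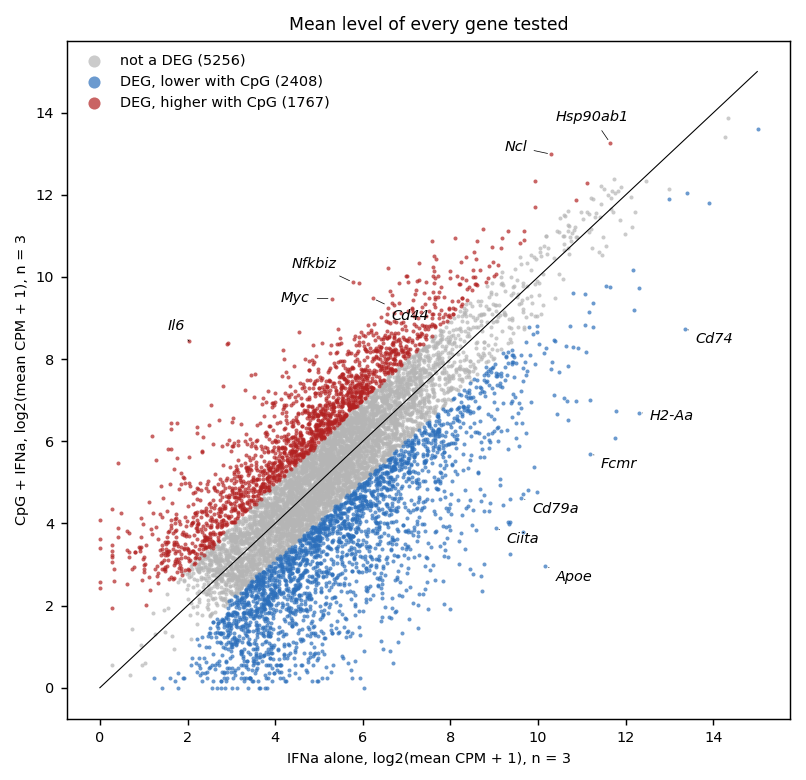
Mean level of each tested gene under IFNα (horizontal axis) and CpG + IFNα (vertical axis), as log2 of mean CPM + 1, with 3 libraries a group. Coloured points are the 1767 DEGs higher and 2408 DEGs lower with CpG; H2-Aa, Cd74, Ciita and Apoe lie far below the diagonal, and Il6, Nfkbiz, Myc and Ncl above it.

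**Figure D2:**
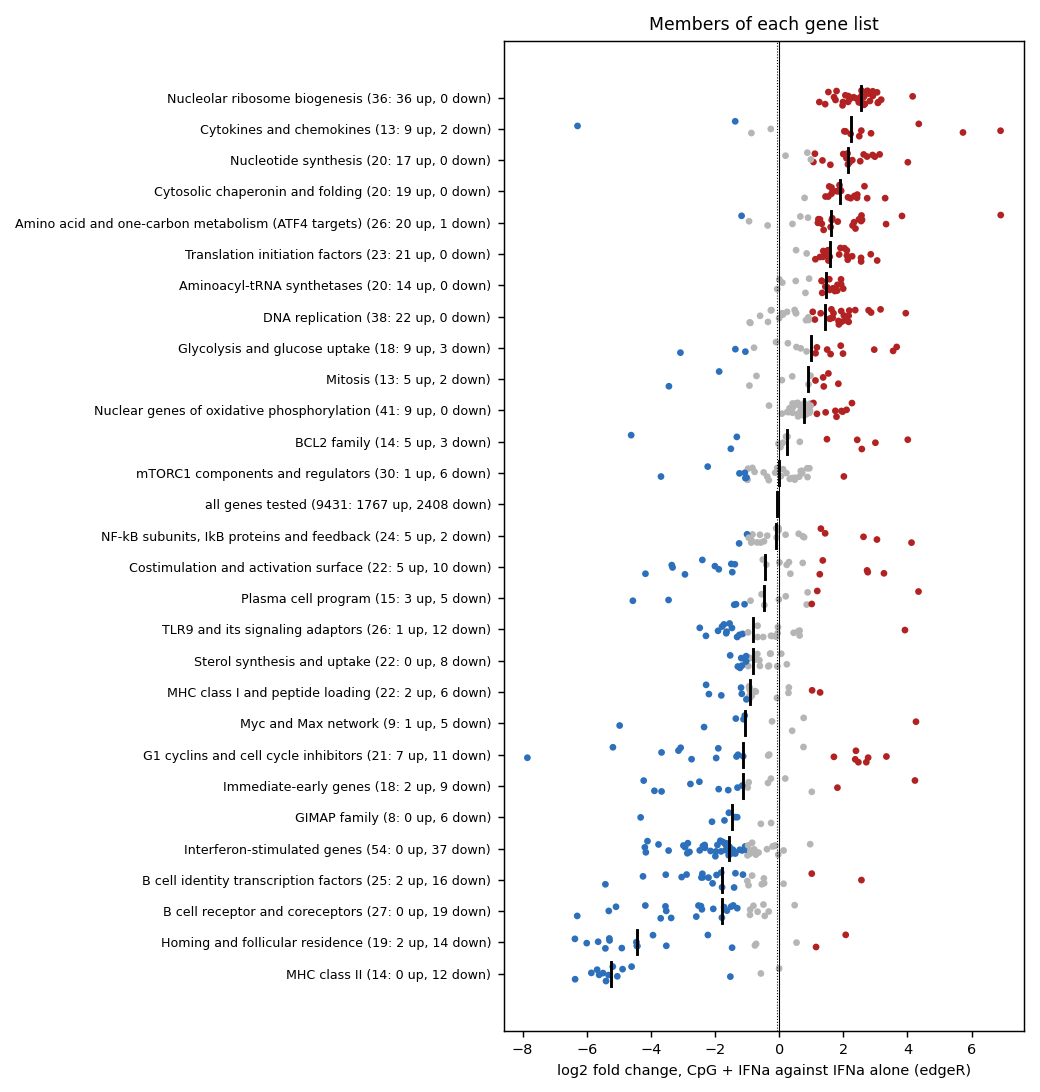
Log2 fold change (CpG + IFNα against IFNα) of every tested member of 28 pathway lists, 1 point a gene, red for DEGs that rose, blue for DEGs that fell and grey for other genes, with a black bar at each median, and a row with only the median of all genes tested (also the dotted line). Every nucleolar gene lies to the right of 1, and 12 of 14 MHC class II genes lie to the left of -1.

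Of the cytokine and chemokine genes, 9 of 13 tested rose (69.2%, against 18.7% of all genes tested) and 2 fell (15.4%, against 25.5%), with a median log2 fold change of 2.23. A further 15 of the 28 listed were not tested. The filter on low counts keeps a gene, such as Il6, that is high only with CpG. These shares therefore describe the tested genes only. Il6, a cytokine of inflammation and B cell growth, stood at 5.04, 1.22 and 3.05 CPM under IFNα and at 397, 306 and 331 CPM under CpG + IFNα. The groups were far apart and Il6 rose by 6.90 ± 0.27 on the log2 scale (SE, edgeR adjusted p = 5.8e-21). Ccl3 and Ccl4, chemokines that attract T cells and monocytes, rose by 5.73 and 4.35, and Tnf rose by 2.86. Cxcl10, a chemokine known as an interferon target, was at 55.5, 74.2 and 48.8 CPM under IFNα and at 319, 384 and 320 CPM under CpG + IFNα, whereas it was at 3.07 CPM or less under CpG alone. Il10, an anti-inflammatory cytokine, was at 4.04, 1.82 and 0.763 CPM and then at 12.5, 5.86 and 12.3 CPM, a rise of 2.23 ± 0.53 (edgeR adjusted p = 0.00037), or of 2.81 without IFNα replicate 1. Ltb, which encodes a lymphotoxin subunit that helps build lymphoid tissue, moved the other way, from 707, 552 and 709 CPM to 7.64, 5.86 and 12.3 CPM. It fell by 6.29 on the log2 scale, and Tgfb1 fell by 1.37.

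The promoter of Il6 is shown because it holds a form of the κB motif bound by NF-κB proteins. The gene (ENSMUSG00000025746) lies at chr5:30013114-30019981 on the + strand in GRCm38, and the 170 bases before its start (RefSeq, GRCm38.p6, chr5:30012944-30013113) are printed 5′ to 3′ with the motif GGGANTTTC in capitals, 44 bases before the start.
Il6: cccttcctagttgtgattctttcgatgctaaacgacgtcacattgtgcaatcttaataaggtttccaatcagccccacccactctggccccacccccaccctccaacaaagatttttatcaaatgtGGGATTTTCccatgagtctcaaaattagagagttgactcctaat
Searched on both strands in windows of 250 bases before to 50 after each start, this motif was in 1.11% of all 32851 windows and 0.872% of the windows of tested genes. It was in 16.7% of the 24 windows matched to the cytokine list, those of Csf1, Cxcl9, Il6 and Ltb. Ltb, with the same motif, fell. Among promoters of all higher DEGs the share was 1.23%, and among those of lower DEGs 0.856%. Such a match describes letters only and does not show binding.

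Of 24 tested NF-κB genes 5 rose (20.8%, near the 18.7% of all genes tested) and 2 fell (8.33%, against 25.5%), and the sign of their median changed with the filter on low counts. Nfkbiz, an inducible nuclear IκB protein needed for secondary NF-κB targets such as Il6, was at 56.5, 54.1 and 50.4 CPM under IFNα and at 930, 1040 and 835 CPM under CpG + IFNα. It had the smallest p of all higher DEGs, with a log2 fold change of 4.13 ± 0.15 (edgeR adjusted p = 6.5e-22). Traf1, an adaptor of TNF receptors, rose by 3.05, and Nfkb1, the p105/p50 subunit, by 1.30. Tnfaip3, the A20 enzyme that restrains NF-κB, was at 11.1, 17.6 and 22.9 CPM and then at 92.7, 132 and 101 CPM. Nfkbia, the IκBα inhibitor, was at 446, 406 and 383 CPM and at 722, 665 and 666 CPM, a difference of 0.73 on the log2 scale that stayed under the 2-fold cutoff. Bcl3, an atypical IκB protein, fell by 1.25, and by 0.94 (under 2-fold) without CpG + IFNα replicate 2. Ikbkb, an IκB kinase, was lower by just over 2-fold, and by under 2-fold when any one of CpG + IFNα replicate 1, CpG + IFNα replicate 2, IFNα replicate 2 or IFNα replicate 3 was left out, with log2 values down to -0.89 in size.

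In the machinery that carries the CpG signal, 21 of 26 genes had a log2 fold change below 0, as had 4918 of all 9431, and 13 were not DEGs. Of 26 genes for TLR9, its processing and its adaptors, 12 fell (46.2%, against 25.5% of all genes tested) and 1 rose (3.85%, against 18.7%), with a median log2 fold change of -0.82. Tlr9 itself was at 497, 441 and 578 CPM under IFNα and at 247, 263 and 263 CPM under CpG + IFNα. The groups did not overlap, and the difference of -0.97 ± 0.11 (edgeR adjusted p = 5.1e-09) fell just short of the 2-fold cutoff; without IFNα replicate 2 it passed, at -1.05. Irf7, the interferon regulatory factor that is itself interferon-induced, went from 1937, 1560 and 1790 CPM to 297, 358 and 291 CPM and fell by 2.48. Ctss and Lgmn, endosomal proteases, fell by 1.91 and 2.28. The member that rose, Tnip3, an A20-binding inhibitor of NF-κB signaling, was at 0, 0 and 0.763 CPM and then at 3.27, 4.14 and 7.71 CPM.

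Myc, the transcription factor that drives ribosome and nucleotide synthesis genes, rose from 48.4, 26.8 and 38.9 CPM under IFNα to 755, 647 and 725 CPM under CpG + IFNα. The log2 fold change was 4.26 ± 0.17 (edgeR adjusted p = 9.7e-21), and the unstimulated libraries (143 to 225 CPM) lay between the groups. Of 9 tested genes of the Myc and Max network, Myc was the 1 that rose (11.1%, against 18.7% of all genes tested), and 5 fell (55.6%, against 25.5%). Mxd4, a MAX partner that opposes MYC at shared sites, went from 58.5, 60.8 and 57.2 CPM to 1.64, 1.72 and 2.06 CPM and fell by 4.97. Mxd1 and Mxi1, of the same family, fell by 2.34 and 1.35. Mnt, another MAX partner, fell by 1.07, and by 0.97 (under 2-fold) without IFNα replicate 3. Max, the shared partner, differed by 0.40 and was not a DEG.

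Genes of ribosome assembly in the nucleolus rose without exception. All 36 tested were DEGs, by 1.25 to 4.16 on the log2 scale with a median of 2.56, where 18.7% of all genes tested rose. Their summed level was 5631, 4300 and 4354 CPM under IFNα and 29986, 29592 and 24452 CPM under CpG + IFNα. Rrp1b, an rRNA processing factor, led the list at 25.2, 23.1 and 19.1 CPM and then 394, 416 and 391 CPM. Ncl, nucleolin, was at 1568, 1145 and 1053 CPM and then at 8807, 9125 and 6430 CPM, a rise of 2.70. Npm1, nucleophosmin, rose by 2.41, and Nolc1, a chaperone of small nucleolar particles, by 3.08. Gnl3 and Nop58, a nucleolar GTPase and a core protein of small nucleolar particles, rose by 3.05 and 2.92. The groups overlapped for no member of the list, which also holds for 1747 of the 1767 higher DEGs and 72.4% of all genes tested. Mrto4, a ribosome assembly factor outside the list, rose by 3.34.

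The promoter of Nop2, an rRNA methyltransferase of the large subunit, is shown because it holds CACGTG, the E box bound by MYC and MAX. Nop2 was at 33.3, 35.3 and 44.3 CPM under IFNα and at 342, 293 and 335 CPM under CpG + IFNα. The 170 bases before its start (RefSeq, GRCm38.p6, chr6:125131713-125131882, + strand) carry the E box, in capitals, 60 bases before the start.
Nop2: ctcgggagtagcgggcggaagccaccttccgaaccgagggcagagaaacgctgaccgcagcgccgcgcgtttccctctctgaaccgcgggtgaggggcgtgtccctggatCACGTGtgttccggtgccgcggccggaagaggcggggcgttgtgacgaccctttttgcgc
The E box was in 7.15% of all windows, 11% of those of tested genes, 14.5% of those of higher DEGs and 9.30% of those of lower DEGs. In the nucleolar list 31 of 36 genes matched a window, and 22.9% of their 35 windows held it (Ltv1, Mybbp1a, Nop2, Pes1, Tsr1, Utp20, Utp4 and Wdr43). The letters were not found in the windows of Ncl, Npm1 or Nolc1.

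Most initiation factors, tRNA synthetases and folding genes rose as well, where 18.7% of all genes tested rose. Of 23 initiation factors 21 rose (91.3%) and none fell (median 1.58), of 20 aminoacyl-tRNA synthetases 14 rose (70%) and none fell (median 1.47), and of 20 chaperonin and folding genes 19 rose (95%) and none fell (median 1.89). Eif4a1, the helicase of the cap-binding complex, was at 303, 252 and 263 CPM and then at 2245, 1768 and 1891 CPM, a rise of 2.86. Hspd1, the mitochondrial chaperonin HSP60, was at 225, 140 and 209 CPM and then at 2202, 1852 and 1561 CPM, a rise of 3.30. Cct3 and Cct6a, subunits of the cytosolic chaperonin, rose by 2.43 and 2.66, and Eif2s1 and Eif2s2, subunits of eIF2, by 2.55 and 2.04. The synthetases Eprs and Gars each rose by 1.93, while Vars differed by -0.06. Among the most abundant mRNAs, Hsp90ab1 went from 3853, 2671 and 3045 CPM to 11303, 9324 and 8970 CPM, and Rps2, a small ribosomal subunit protein, rose by 1.18. Pabpc1, the poly(A)-binding protein, rose by 1.02, but by 0.99, 0.98 and 0.99 (under 2-fold) without CpG + IFNα replicate 1, IFNα replicate 2 or IFNα replicate 3.

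Several of the genes with the smallest p were single members of such growth pathways. Srm, spermidine synthase of the polyamine pathway, went from 68.6, 39.5 and 68.7 CPM to 978, 839 and 938 CPM and rose by 3.99. C1qbp, a mitochondrial matrix protein, rose by 3.05, and Eef1e1, a scaffold of the synthetase complex, by 3.34. Ybx3, a cold-shock domain RNA-binding protein, went from 117, 73.0 and 93.1 CPM to 1272, 1156 and 1159 CPM.

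Genes of nucleotide, amino acid and folate metabolism mostly rose. In nucleotide synthesis 17 of 20 rose (85%, against 18.7% of all genes tested) and none fell (median 2.14). Ctps, CTP synthase, went from 6.05, 10.9 and 9.92 CPM to 157, 144 and 155 CPM. Nme1 and Aprt, a nucleoside diphosphate kinase and a purine salvage enzyme, rose by 2.74 and 2.53. Of 26 genes of amino acid and folate metabolism, many of them ATF4 targets, 20 rose (76.9%, against 18.7%) and 1 fell (3.85%, against 25.5%), with a median of 1.62. Shmt2 went from 101, 81.5 and 108 CPM to 515, 436 and 459 CPM, and the serine and folate enzymes Psat1 and Mthfd1 rose by 2.56 and 2.58. Ddit3, the CHOP transcription factor, fell by 1.17, and by 0.99 (under 2-fold) without CpG + IFNα replicate 1.

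Of 18 glycolysis genes 9 rose (50%, against 18.7% of all genes tested) and 3 fell (16.7%, against 25.5%), with a median of 0.99. Hk2 went from 18.2, 7.90 and 13.7 CPM to 166, 122 and 158 CPM, while Hk1, the hexokinase of most resting cells, fell by 3.08. Slc16a1, the lactate transporter MCT1, rose by 3.66 and Pkm by 1.92. Pfkfb3 fell by 1.37 and Pdk1 by 1.05, the latter under 2-fold without CpG + IFNα replicate 2 (-0.96) or IFNα replicate 3 (-0.99). Of 41 nuclear genes of oxidative phosphorylation 9 rose (22%, against 18.7% of all genes tested), none fell and the median was 0.76, while 38 were higher at an adjusted p below 0.1, whatever the size, as were 3409 of all 9431. The values ran from -0.32 to 2.27, with Cycs, Ndufab1 and Atp5b rising by 2.27, 1.94 and 1.79. The 12 tested genes of the mitochondrial genome had a median of -0.64, and 2 fell: mt-Rnr2 from 35978, 34486 and 28188 CPM to 12231, 13752 and 11326 CPM, and mt-Rnr1 from 12347, 25938 and 7526 CPM to 3764, 4409 and 2466 CPM. The log2 fold change of mt-Rnr1 was -2.11, and -1.48 without IFNα replicate 2. In mTORC1 signaling 1 of 30 genes rose (3.33%, against 18.7% of all genes tested), Tbc1d7 by 2.02. In the same list 6 fell (20%, against 25.5%), among them Sesn1 by 3.69, Pik3r1 by 2.23 and Sesn3 by 1.24. Mtor differed by 0.23 (edgeR adjusted p = 0.29).

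Cell cycle genes moved in both directions in G1 and mostly upward in DNA replication. Among 21 G1 genes 7 rose (33.3%) and 11 fell (52.4%), against 18.7% and 25.5% of all genes tested. Ccnd2, cyclin D2, went from 209, 167 and 232 CPM to 1374, 1509 and 1250 CPM, and its kinases Cdk6 and Cdk4 rose by 2.72 and 2.37. Cdkn1b, the p27 inhibitor of resting cells, went from 450, 448 and 515 CPM to 53.5, 56.9 and 57.0 CPM, and the antiproliferative genes Btg1 and Btg2 fell by 2.73 and 3.67. Cdkn1a, the p21 inhibitor, rose instead, from 22.2, 28.6 and 23.7 CPM to 205, 294 and 268 CPM. Of 38 DNA replication genes 22 rose (57.9%, against 18.7% of all genes tested) and none fell (median 1.44). Tyms was at 4.04, 6.08 and 2.29 CPM and then at 71.5, 62.8 and 68.9 CPM, and Mcm2 and Pold2 rose by 2.17 and 2.37. Of 13 mitosis genes 5 rose (38.5%) and 2 fell (15.4%), against 18.7% and 25.5% of all genes tested. Top2a, Cdk1 and Ccna2 rose by 1.84, 1.39 and 1.53 from levels of 1.53 to 15.3 CPM, Cenpa and Nusap1 fell by 3.44 and 1.87, and Mki67 stayed at 3.03 to 9.31 CPM in all 6 libraries.

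MHC class II genes had the lowest median of the 34 lists with a tested member: 12 of 14 fell, none rose, and the median log2 fold change was -5.25, against 25.5% of all genes tested lower. MHC class II presents peptides to helper T cells, and its chains, chaperones and the coactivator CIITA are switched on together. The summed level of the list was 27918, 22088 and 25300 CPM under IFNα and 844, 814 and 786 CPM under CpG + IFNα. H2-Aa, an α chain, was at 5458, 4422 and 5254 CPM and then at 113, 106 and 89.4 CPM, and fell by 5.61. H2-Eb1 and H2-Ab1, β chains, had log2 fold changes of -5.68 and -5.05. Cd74, the invariant chain, was at 11936, 8941 and 10246 CPM and then at 453, 404 and 425 CPM. H2-DMa, H2-DMb2 and H2-Ob, of the peptide-loading complex and its inhibitor, fell by 5.86, 5.32 and 5.40. Ciita went from 531, 587 and 448 CPM to 10.9, 17.6 and 12.8 CPM. Of the constitutive RFX factors Rfxank fell by 1.52, while Rfx5 and Rfxap differed by -0.57 and -0.00 and were not DEGs.

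The promoters of H2-Aa and H2-Eb1 are shown because class II promoters share a Y box, read here as GATTGG (the reverse complement of CCAATC) and given in capitals. The printed stretches are the 170 bases before each start (RefSeq, GRCm38.p6): chr17:34287824-34287993 on the - strand for H2-Aa, with the motif 49 bases before the start, and chr17:34305697-34305866 on the + strand for H2-Eb1, with the motif 60 and 35 bases before it.
H2-Aa: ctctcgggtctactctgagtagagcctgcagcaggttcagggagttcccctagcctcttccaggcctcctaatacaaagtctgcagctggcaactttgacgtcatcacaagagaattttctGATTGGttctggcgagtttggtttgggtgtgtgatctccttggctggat
H2-Eb1: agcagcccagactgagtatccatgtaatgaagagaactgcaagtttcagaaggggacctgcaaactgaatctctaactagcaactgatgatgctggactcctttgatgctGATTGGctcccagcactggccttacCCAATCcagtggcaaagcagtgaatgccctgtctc
Of the 14 genes 10 matched, the RFX genes Rfx5 and Rfxank among them. GATTGG was in 90.9% of their 11 windows, against 16.1% of all windows and 20.9% of those of tested genes. Over all lower DEGs the share was 19.3%, and over higher DEGs 21%. The motif was not particular to this list: it was in 70% of the 20 mitosis windows and 65.2% of the 23 sterol windows.

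**Figure D3:**
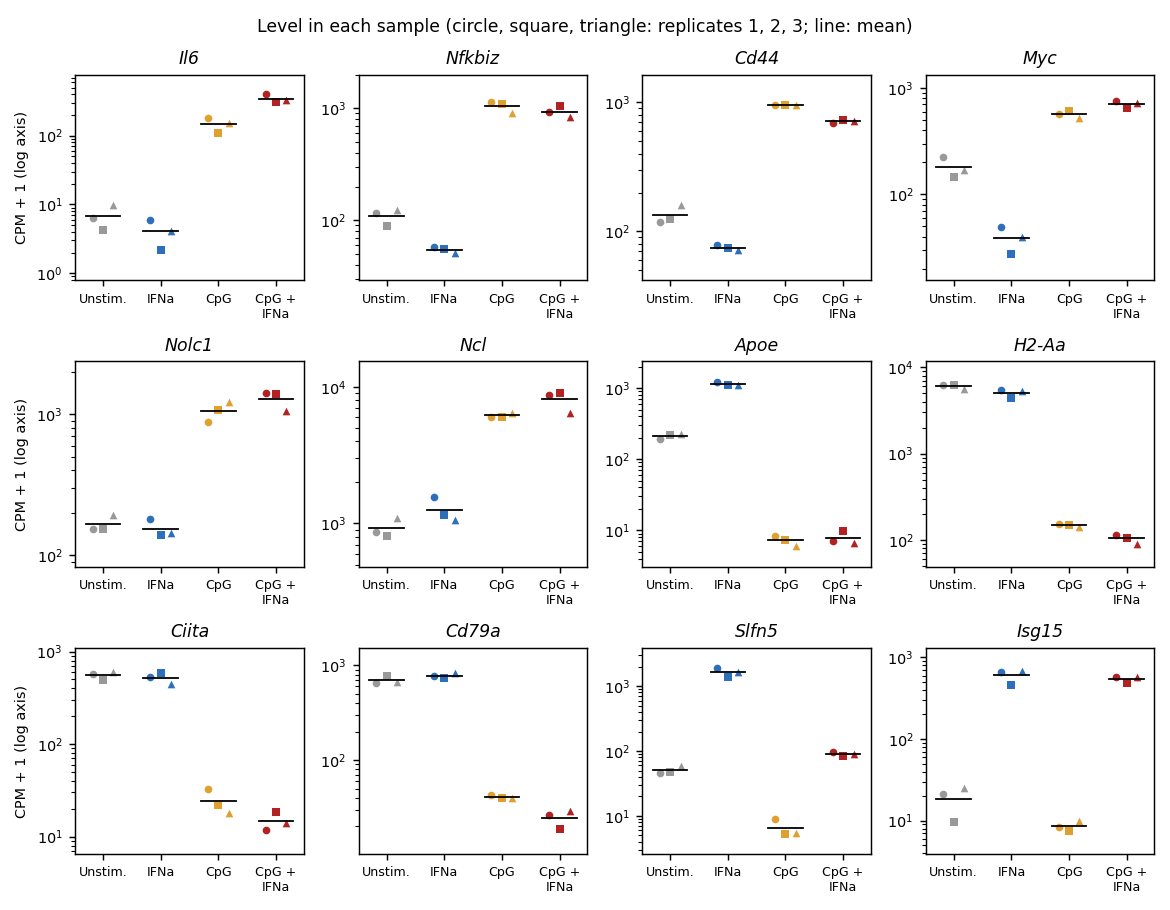
Level of 12 genes in each library of the 4 groups, as CPM + 1 on a log axis, 1 point a library. With IFNα, CpG raised Il6, Nfkbiz, Cd44, Myc, Nolc1 and Ncl and lowered Apoe, H2-Aa, Ciita, Cd79a and Slfn5, while the Isg15 points of the IFNα and CpG + IFNα groups overlap.

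Of 22 genes of class I antigen presentation 6 fell (27.3%, near the 25.5% of all genes tested) and 2 rose (9.09%, against 18.7%), with a median of -0.91. B2m, the light chain, was at 8853, 7302 and 8230 CPM and then at 4408, 4395 and 4671 CPM, a difference of -0.86 that did not reach 2-fold. The nonclassical genes H2-T22, H2-T23 and H2-M3 fell by 1.81, 2.28 and 2.19. Near-identical class I genes may share reads, so these values are uncertain. Erap1, a peptide trimming enzyme, rose by 1.28, and Psme2, a proteasome activator, by 1.03, though by 0.94 (under 2-fold) without IFNα replicate 2.

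B cell receptor genes fell: 19 of 27 were lower (70.4%, against 25.5% of all genes tested), none was higher, and the median was -1.79. Cd79a and Cd79b encode the signaling chains of the receptor. Cd79a was at 774, 736 and 836 CPM under IFNα and at 25.1, 17.6 and 27.8 CPM under CpG + IFNα, and Cd79b at 2352, 2108 and 2482 CPM and then at 112, 121 and 152 CPM. Dok3, an inhibitory adaptor, fell by 6.30, Cd22, an inhibitory lectin, fell by 3.52, and Siglecg, another, fell by 5.31. Fcmr, the IgM Fc receptor, went from 2427, 1960 and 2602 CPM to 46.9, 42.8 and 63.2 CPM, and Fcrla, an intracellular Fc receptor-like protein, fell by 5.02. Ighm and Igkc, the constant regions of the heavy and light chains, fell by 1.08 and 1.34 and stayed among the most abundant mRNAs, Igkc at 11419, 9306 and 11513 CPM and then at 4309, 4042 and 4341 CPM.

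Transcription factors of B cell identity and quiescence went the same way: 16 of 25 fell (64%, against 25.5% of all genes tested) and 2 rose (8%, against 18.7%), with a median of -1.78. Klf2, a factor of quiescence and recirculation, was at 646, 553 and 730 CPM and then at 13.1, 15.9 and 15.4 CPM. Ets1, which holds B cells back from plasma cell differentiation, was at 883, 812 and 833 CPM and then at 76.4, 68.3 and 73.5 CPM. Bach2, with a like role, went from 362, 401 and 407 CPM to 52.4, 84.2 and 85.8 CPM and fell by 2.38. Pax5, the B lineage factor, was at 721, 591 and 620 CPM and at 458, 445 and 421 CPM, a difference of -0.54 (edgeR adjusted p = 4.9e-05) that was no DEG. Id2, an inhibitor of E proteins, rose by 2.56.

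Irf4, which directs both germinal center and plasma cell fates, was the other factor that rose. It was at 86.8, 82.7 and 95.4 CPM under IFNα and at 185, 154 and 198 CPM under CpG + IFNα, with unstimulated libraries at 136 to 257 CPM. The groups did not overlap, and the log2 fold change was 1.01 ± 0.16 (edgeR adjusted p = 7.5e-07), just past the 2-fold cutoff. Without CpG + IFNα replicate 3 it was 0.95 and without IFNα replicate 2 it was 0.97, both short of the cutoff.

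Of 15 plasma cell genes 3 rose (20%) and 5 fell (33.3%), against 18.7% and 25.5% of all genes tested. Tent5c, a poly(A) polymerase of secretory cells, went from 4.04, 2.43 and 4.58 CPM to 66.0, 94.5 and 57.0 CPM, and Dnajb9, an ER chaperone, rose by 1.19. Sdc1, which encodes the plasma cell marker CD138, went from 29.3, 20.7 and 31.3 CPM to 1.64, 0.690 and 1.03 CPM, and Zbtb20 fell by 3.45. Prdm1, the Blimp-1 factor of plasma cells, had 20 counts summed over the 3 IFNα libraries and 20 over the 3 CpG + IFNα libraries, too few to test.

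Homing and residence genes fell steeply: 14 of 19 were lower (73.7%, against 25.5% of all genes tested), 2 were higher (10.5%, against 18.7%), and the median was -4.42. S1pr1 and S1pr4, receptors for the lipid that guides lymphocytes out of tissue, fell by 5.65 and 6.37, S1pr4 from 225, 228 and 306 CPM to 1.64, 4.14 and 2.57 CPM. Cd55, a complement regulator, fell by 4.42, and Gpr183 and Cxcr4, receptors that position B cells, by 4.45 and 4.44. Ccr7, the receptor that draws B cells toward the T cell zone, rose from 381, 372 and 358 CPM to 1701, 1508 and 1469 CPM. Itgb1, the β1 integrin, rose by 1.15, and by 0.93 (under 2-fold) without IFNα replicate 2. Of 8 GIMAP genes, which encode lymphocyte GTPases, 6 fell (75%, against 25.5% of all genes tested), with Gimap7, Gimap6 and Gimap1 at -4.32, -2.10 and -1.71. Gimap7 was at -5.17 without CpG + IFNα replicate 2.

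The lower DEG with the smallest p of all was Apoe, the apolipoprotein of lipid transport (ENSMUSG00000002985, chr7:19696109-19699188, - strand). It was at 1214, 1098 and 1122 CPM under IFNα and at 6.0, 8.62 and 5.65 CPM under CpG + IFNα, and fell by 7.34 ± 0.16 (edgeR adjusted p = 1.2e-26). Snn, a small membrane protein known as stannin, went from 425, 404 and 406 CPM to 6.0, 5.17 and 5.65 CPM.

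Of 22 genes for surface proteins of activation and costimulation, 10 fell (45.5%, against 25.5% of all genes tested) and 5 rose (22.7%, near the 18.7% of all genes), with a median of -0.46. Cd44, the hyaluronan receptor of activated lymphocytes, was at 77.7, 73.6 and 71.0 CPM and then at 691, 733 and 710 CPM, and rose by 3.27. Il2ra, the IL-2 receptor α chain, rose by 2.76 and Cd40, the receptor for T cell help, by 1.36, from between 83.3 and 83.9 CPM to between 193 and 241 CPM. Cd86, a ligand of CD28, fell by 1.49, from 110, 96.7 and 83.9 CPM to 34.9, 38.3 and 28.3 CPM, while Cd80, its partner, rose from 1.53 CPM or less to between 5.45 and 8.97 CPM. Icosl, Il4ra and Ly6a, the ICOS ligand, the IL-4 receptor and Sca-1, fell by 3.32, 2.40 and 2.01.

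In the BCL2 family, which sets survival, 5 of 14 genes rose (35.7%, against 18.7% of all genes tested) and 3 fell (21.4%, near the 25.5% of all genes). Among the survival genes, Bcl2a1d went from 5.04, 5.47 and 6.11 CPM to 95.5, 88.0 and 89.9 CPM, though close copies of this gene may share its reads. Bcl2 rose by 1.49, while Mcl1 fell by 1.32, from 747, 594 and 695 CPM to 291, 267 and 255 CPM. Of the death-promoting members Bax rose by 2.43, and Bmf and Bad fell by 4.62 and 1.51, Bmf with a value of -5.26 without CpG + IFNα replicate 2.

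Interferon-stimulated genes (ISGs) were lower when CpG was added, although IFNα was in both groups. Of 54 tested, 37 fell and none rose, with a median of -1.56, against 25.5% of all genes tested lower. Their summed level was 33250, 27785 and 32234 CPM under IFNα and 11070, 10946 and 11268 CPM under CpG + IFNα. For 43 of the 54, all CpG + IFNα libraries still lay above all unstimulated libraries, 27 of the 37 lower DEGs among them, and for 4 they lay below. Over all genes tested, 36.6% lay above and 37.3% below in this way.

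The size of the drop varied between ISGs. Slfn5, a Schlafen family gene, went from 1904, 1372 and 1658 CPM to 96.5, 83.8 and 90.5 CPM, where unstimulated libraries held 45.5 to 58.2 CPM, and fell by 4.19. Ifit3, of the IFIT proteins that bind viral RNA, went from 1469, 1243 and 1416 CPM to 87.3, 101 and 115 CPM and fell by 3.76. Its near-identical neighbour Ifit3b fell by 4.11, and counts of the pair may be shared. Oas2, a sensor of double-stranded RNA, and Stat2 fell by 4.16 and 2.93. Ifit1 and Rsad2, also antiviral, fell less, by 1.16 and 1.37.

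Other ISGs differed by less than 2-fold. Isg15, a ubiquitin-like modifier, was at 661, 462 and 687 CPM under IFNα and at 578, 483 and 574 CPM under CpG + IFNα, with unstimulated libraries at 8.56 to 23.8 CPM. The groups overlapped, and the difference was -0.14 ± 0.13 (edgeR adjusted p = 0.33). Usp18, the protease that removes ISG15 and damps the interferon receptor, was at 536, 445 and 565 CPM and at 338, 295 and 356 CPM, a difference of -0.64 (edgeR adjusted p = 6.3e-05) that was no DEG. In all, 11 ISGs were lower at an adjusted p below 0.1 but by less than 2-fold, and 5 had an adjusted p of 0.1 or more. Ifi27 had the highest value, 0.97, at 26.2, 54.7 and 29.0 CPM and then 77.5, 70.7 and 77.1 CPM.

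**Figure D4:**
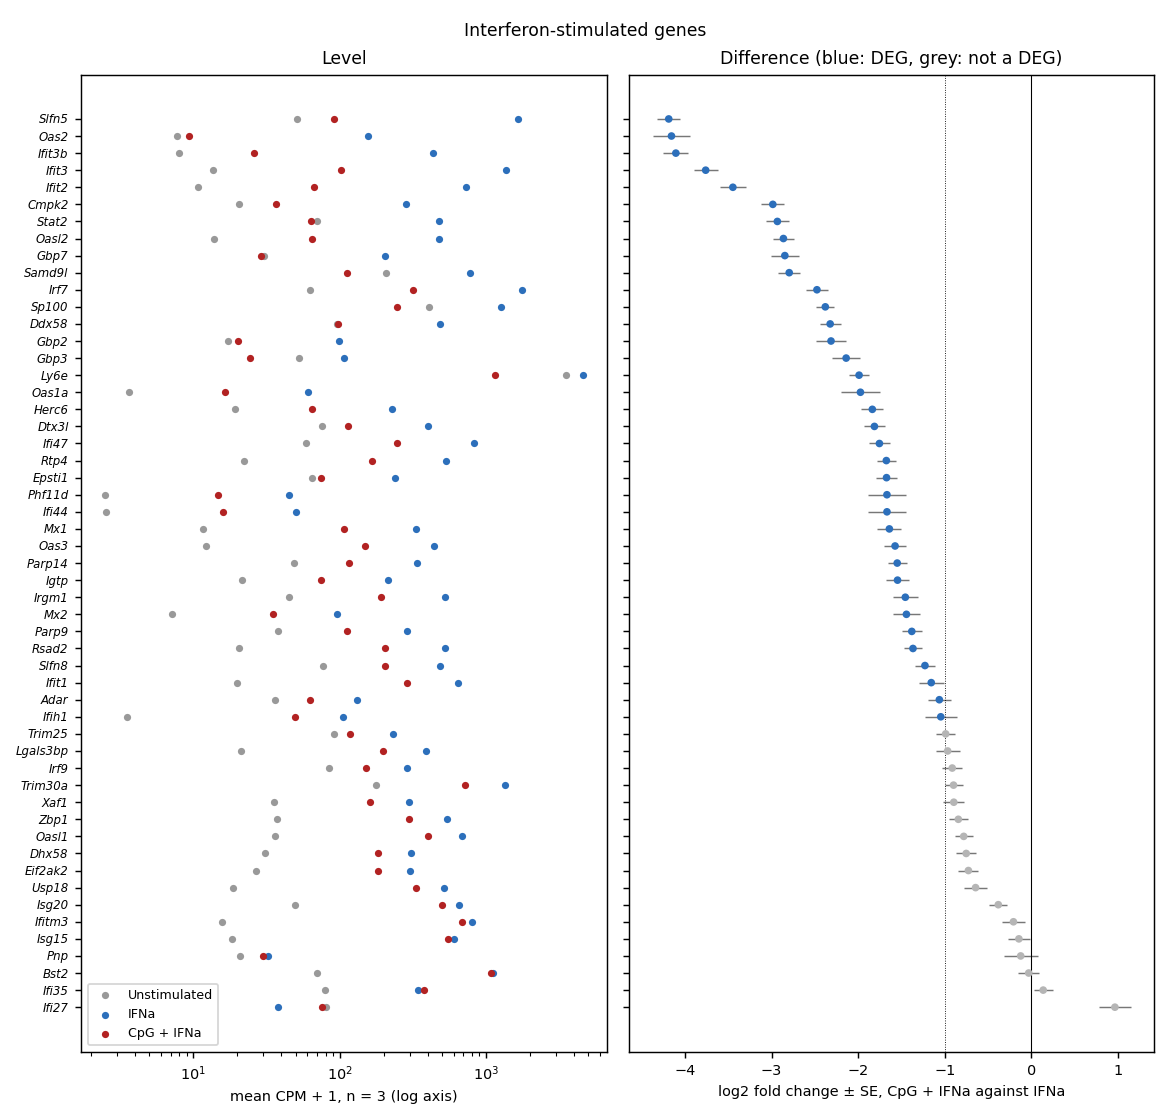
Tested interferon-stimulated genes, 1 row a gene: at left the mean CPM + 1 of unstimulated, IFNα and CpG + IFNα libraries (3 each, log axis), at right the log2 fold change ± SE of CpG + IFNα against IFNα, blue for DEGs. Slfn5 and Ifit3 drop toward the unstimulated level, while the IFNα and CpG + IFNα points of Isg15 and Bst2 nearly coincide.

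Promoters of an ISG that fell and of one that did not are shown because both hold the ISRE core GAAANNGAA, in capitals. The stretches are the 170 bases before each start (RefSeq, GRCm38.p6): chr19:34583359-34583528 on the + strand for Ifit3, with matches 155, 121 and 102 bases before the start, and chr4:156200819-156200988 on the - strand for Isg15, with overlapping matches 78, 72 and 66 bases before it.
Ifit3: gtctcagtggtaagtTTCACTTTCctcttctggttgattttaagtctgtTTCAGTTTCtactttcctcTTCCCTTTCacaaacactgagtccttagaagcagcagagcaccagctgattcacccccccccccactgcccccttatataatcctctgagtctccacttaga
Isg15: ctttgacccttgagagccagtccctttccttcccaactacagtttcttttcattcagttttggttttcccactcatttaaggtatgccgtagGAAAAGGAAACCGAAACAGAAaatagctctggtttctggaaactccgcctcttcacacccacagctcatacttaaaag
Of the 56 listed ISGs 44 matched, and 55.6% of their 54 windows held the motif, against 8.56% of all windows and 7.52% of those of tested genes. It was in 57.1% of the 35 windows of ISGs that fell and in 47.1% of the 17 windows of ISGs that were not DEGs.

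The effect of CpG was then compared with and without IFNα, as the difference between CpG + IFNα and IFNα minus the difference between CpG and unstimulated. The comparisons share no library. No culture time was given for the unstimulated cells, so in the difference between CpG and unstimulated, CpG cannot be told apart from time in culture. CpG alone gave 1898 higher DEGs (20.1% of the genes tested) and 2405 lower DEGs (25.5%). Of the 1767 genes that rose with IFNα present, 1454 (82.3%, and 76.6% of the 1898) also rose without it, and 9 fell. Of the 2408 that fell, 1966 (81.6%, and 81.7% of the 2405) also fell without it, and 1 rose. The effect itself differed at an adjusted p below 0.1 and by more than 2-fold for 590 genes (6.26%), 291 above 0 and 299 below (366 and 237 with no filter on low counts), and 351 of these were among the 4175 DEGs.

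**Figure D5:**
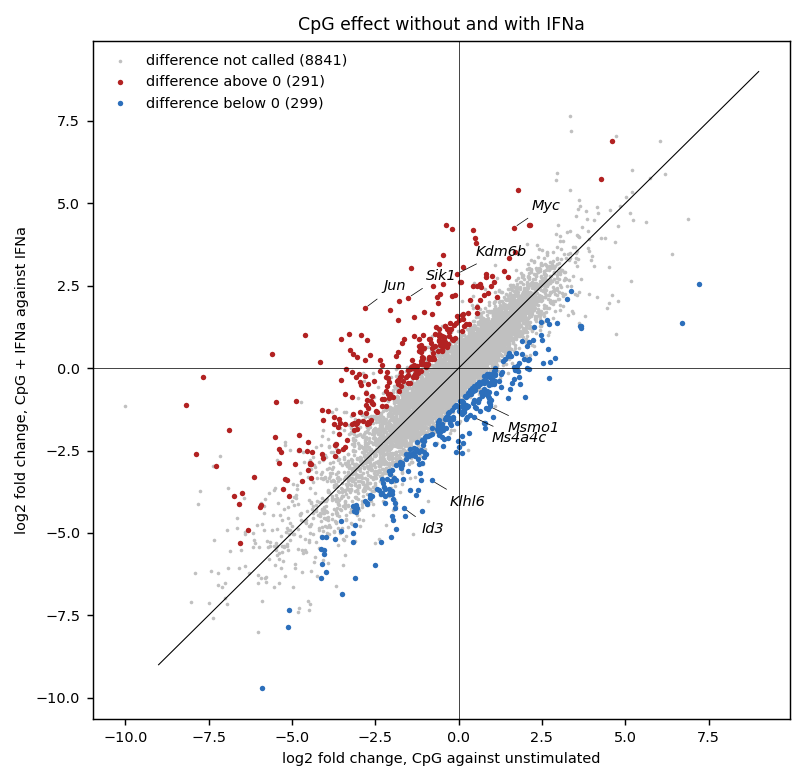
Log2 fold change of each tested gene with CpG in the absence of IFNα (horizontal axis, CpG minus unstimulated) and in its presence (vertical axis, CpG + IFNα minus IFNα), with the 590 genes whose effects differ in colour. Jun, Kdm6b, Sik1 and Myc lie above the diagonal, and Id3, Klhl6, Msmo1 and Ms4a4c below it.

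Myc was among the genes whose rise was larger with IFNα present. It rose by 1.66 with CpG alone, from 225, 143 and 168 CPM to 572, 610 and 520 CPM, and by 4.26 with IFNα present, a difference of 2.60 (edgeR adjusted p = 3.8e-10). The CpG + IFNα level (647 to 755 CPM) was above that of CpG alone, and the IFNα level (26.8 to 48.4 CPM) was below that of unstimulated cells. Kdm6b, a histone H3K27 demethylase, had the next smallest p of this test after Jun among the DEGs: it was at 731, 476 and 517 CPM unstimulated, 592, 604 and 478 CPM with CpG, 126, 125 and 137 CPM with IFNα, and 1073, 870 and 888 CPM with CpG + IFNα. Its effects were -0.05 and 2.87, which differed by 2.91 (edgeR adjusted p = 8.2e-13).

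Of the cytokine and costimulation genes, 7 of 13 and 5 of 22 had a CpG effect that was more positive, or less negative, in the presence of IFNα, where 291 of all 9431 (3.09%) did. Il6 rose by 4.60 without and 6.90 with IFNα, a difference of 2.30 (edgeR adjusted p = 0.016). Cxcl10 differed by 3.27 and Lta, lymphotoxin α, by 3.83. Cd69, an early activation antigen, was at 548, 442 and 456 CPM unstimulated, 62.6, 60.6 and 50.9 CPM with CpG, 176, 165 and 162 CPM with IFNα, and 222, 208 and 208 CPM with both. Cd86 fell by 3.74 without IFNα and by 1.49 with it, and Irf4 differed by -0.57 without it and by 1.01 with it, an interaction of 1.58 (edgeR adjusted p = 5.1e-06).

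Immediate-early genes, the first transcripts after a stimulus, had the largest median difference in effect of the 34 lists (2.57 on the log2 scale): of 18 tested, 15 had a more positive or less negative CpG effect with IFNα, and the median effect was -1.14 with IFNα and -3.87 without. In 16 of the 18 all IFNα libraries were below all unstimulated libraries, and in 17 all CpG libraries were, against 16% and 37.1% of all genes tested. Jun, an AP-1 subunit, was at 1026, 556 and 1054 CPM unstimulated, 115, 133 and 128 CPM with CpG, 57.5, 54.1 and 35.9 CPM with IFNα, and 154, 184 and 178 CPM with CpG + IFNα. Its log2 changes were -2.81 without and 1.82 with IFNα, which differed by 4.63. Zfp36, which destabilises cytokine mRNAs, fell in both settings, with log2 changes of -5.95 without and -4.23 with IFNα, and Ier2 likewise, with -3.58 and -2.77. Atf3, a stress-induced factor, rose by 4.23 with IFNα, from 7.06, 3.65 and 3.05 CPM to 82.9, 84.2 and 80.7 CPM. Sik1, a kinase of cAMP signaling, was at 268, 235 and 175 CPM unstimulated, 68.2, 89.8 and 79.4 CPM with CpG, 14.1, 15.8 and 16.8 CPM with IFNα and 76.4, 66.9 and 64.8 CPM with both, and its effects differed by 3.65. Fos, the partner of Jun, was at 1065 to 1415 CPM in the unstimulated libraries and at 2.07 to 6.17 CPM in the 6 libraries with IFNα. Whether time in culture has a part in the levels of these genes against unstimulated cells was not tested.

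Sterol genes showed the reverse pattern. Of 22 genes of cholesterol synthesis and uptake, 8 fell (36.4%, against 25.5% of all genes tested) with CpG in the presence of IFNα and none rose (median -0.83), whereas the median was 0.58 without IFNα, and the effect was lower with IFNα for 14, against 3.17% of all genes tested. In 17 of the 22, all IFNα libraries were above all unstimulated libraries, against 16.4% of all genes tested. Msmo1, a sterol methyl oxidase, was at 28.2, 25.7 and 23.8 CPM unstimulated, 52.2, 46.3 and 49.4 CPM with CpG, 101, 93.0 and 83.9 CPM with IFNα and 38.2, 44.8 and 39.6 CPM with both, so its effects of 0.93 and -1.16 differed by -2.09 (edgeR adjusted p = 6e-08). Dhcr7 fell by 1.53, Insig1, an inhibitor of SREBP processing, by 1.18, and Srebf2, the master factor, by 1.03, the last under 2-fold without CpG + IFNα replicate 1 (-0.96) or IFNα replicate 1 (-0.97). Sqle, squalene epoxidase, differed by -0.06.

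Among the 2408 lower DEGs the difference in effect was below 0 for 185 and above 0 for 75. Among the 1767 higher DEGs it was above 0 for 78 and below 0 for 13. All 9431 genes split into 291 above 0 (3.09%) and 299 below 0 (3.17%). Genes picked for a low or high value with IFNα present are favoured to differ that way, so these splits show nothing particular to them. Id3, an E protein inhibitor of resting B cells, was at 105, 75.9 and 132 CPM unstimulated, 33.8, 33.5 and 33.4 CPM with CpG, 320, 392 and 379 CPM with IFNα and 15.3, 19.3 and 22.6 CPM with both. It fell by 4.25 with IFNα, an interaction of -2.60. Klhl6, a ubiquitin ligase adaptor of B cells, was at 145, 124 and 140 CPM with IFNα and at 10.4, 12.4 and 15.4 CPM with both, while CpG alone left 63.4 to 66.4 CPM of an unstimulated 95.5 to 124 CPM. Ms4a4c, a membrane protein of the CD20 family, was at 2104, 1923 and 2399 CPM with IFNα and 717, 769 and 805 CPM with both, against 241 to 334 CPM unstimulated and 400 to 414 CPM with CpG. Apoe and Snn fell further with IFNα, with interactions of -2.26 and -2.22. Among the 54 ISGs the CpG effect was higher with IFNα for 9, Isg15 and Isg20 among them, against 3.09% of all genes tested, and lower for 3 (Slfn5, Gbp2 and Gbp3), which is near the 3.17% of all genes. Isg15 was at 6.42 to 8.99 CPM with CpG alone.

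Some genes were close to absent in 1 group. At most 3 counts in each library were found for 81 tested genes under IFNα and for 209 under CpG + IFNα. Zfp811, a zinc finger gene, had 1 count in all under IFNα and 298 under CpG + IFNα, a depth-corrected ratio of 176 (exact 95% interval 31.4 to 6979, counting error only). Slc7a3, an arginine transporter, had 9 and 575 counts (ratio 37.8, 19.7 to 83.0), Rnd3, an atypical small GTPase, had 4 and 487 (71.9, 27.9 to 265), and Tbx21, the T-bet factor of IgG2 switching, had 6 and 199 (19.6, 8.85 to 54.0). Wfdc21 had 4 and 145, and Ighg2c, a heavy chain constant gene with close copies, had 8 and 204.

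In the other direction, Scml4, a Polycomb-type protein, had 408 counts under IFNα and 3 under CpG + IFNα, a ratio of 230 (78.2 to 1121). Pik3ip1, an inhibitor of PI3 kinase, had 387 and 6 (109, 49.7 to 299), Itgb7, the β7 integrin of gut homing, 242 and 6 (68.3, 30.9 to 188), and B3gnt8, a glycosyltransferase, 227 and 1 (384, 68.3 to 15239). Hmgb1-ps8, a pseudogene whose reads may come from its parent, had 354 and 6. Gm26740, a noncoding gene, had 268 and 0, which at a floor of 3 counts per library is at least 45.5-fold lower with CpG.

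For a few DEGs the value depended on single libraries or on the pairing. Hbb-bs, a β-globin, was at 226, 53.5 and 7.63 CPM under IFNα and at 40.4, 10.7 and 1.03 CPM under CpG + IFNα. The groups overlapped, but Hbb-bs was lower with CpG in every pair of same-numbered libraries. The log2 fold change was -2.43, or -2.39 (edgeR adjusted p = 1.1e-12) with the replicate number as a block; in the fit without pairs it was -0.96 (adjusted p = 0.222) without IFNα replicate 1 and -3.69 without CpG + IFNα replicate 1. Hba-a1 and Hba-a2, nearly identical α-globins, were also lower in every pair, at -2.23 and -1.93, at -2.27 and -2.05 with the block, at -1.15 and -1.01 without IFNα replicate 1 and at -3.28 and -4.44 without CpG + IFNα replicate 1. Hba-a2 was at -1.30 without CpG + IFNα replicate 2. Both calls were lost without IFNα replicate 1 (edgeR adjusted p = 0.188 and 0.277) and in DESeq2 with all libraries (adjusted p = 0.156 and 0.214). Ro60, an RNA-binding autoantigen, was at 3.03, 9.73 and 46.6 CPM under IFNα, and without replicate 3 its value of -2.47 became -0.94 (edgeR adjusted p = 0.366). Krt222, Mapkbp1 and 9230114K14Rik, the higher DEGs with the widest spread, rose by 3.31, 1.38 and 2.46, and Mapkbp1 was under 2-fold (0.98) without IFNα replicate 1 and at 2.55 without replicate 2. Without IFNα replicate 3 Krt222 was at 4.30, and without IFNα replicate 2 9230114K14Rik was at 4.79. Of dendritic cell markers, Ly6c2, also an interferon-responsive lymphocyte antigen, fell from 607, 587 and 775 CPM to 22.9, 13.8 and 32.9 CPM, and Flt3 rose from at most 3.03 CPM to between 5.45 and 8.28 CPM. Cr2, which encodes the CD21 used in the sort, and Dtx1, both high in marginal zone B cells, fell by 2.52 and 1.77.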

How the data were processed

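Bulk BRB-seq libraries (3′ tags with molecular identifiers) from 12 samples of sorted mouse FO B cells, 3 per group, were compared. According to the submitters' processing notes and the study's methods, the authors trimmed reads with Trim Galore 0.6.7, aligned them with HISAT2 2.2.1 to GRCm38, collapsed molecular identifiers with UMI-tools 1.1.2 and counted genes with featureCounts 2.0.1 after extending the Tlr9 model at its 3′ end. The authors deposited whole-number counts per gene, not normalized. Because tags come from the 3′ end, counts do not grow with transcript length. Names and positions were taken from GENCODE M21, which held all 22561 identifiers, of which 2220 had no count. Promoters are from RefSeq.

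The 9431 genes kept by edgeR's filter (filterByExpr, by group) were fitted with TMM factors over all 12 samples and the quasi-likelihood test (edgeR 4.0.16, limma 3.58.1, R 4.3.3), leaving 8 residual degrees of freedom. A DEG had a Benjamini-Hochberg adjusted p below 0.1 and an absolute log2 fold change above 1. Errors of fold changes are the log2 fold change divided by the square root of its F statistic. The interaction was tested in the same fit. Scripts were tested on simulated data. Count ratios of genes at or near 0 have exact 95% intervals, and bounds use a floor of 3 counts per library; intervals and floors cover counting error only. Nothing in the labels ties a library to a particular mouse or pool, so the p-values measure the spread between these libraries, which may be partly technical. At the depths given, a gene at 1 CPM rests on 1 to 3 counts per library.

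Samples were grouped by their labels. Same-numbered libraries of the compared groups deviated together (r = 0.229, 0.242 and 0.136 over 6399 genes, all other pairs -0.221 to -0.004), and the barcode list numbers the libraries alike in each condition, so the replicate number was taken to pair them, and a fit with it as a block is an alternative. The other alternatives were the scaling, the filter, DESeq2 1.42.0, the cutoffs, thinned counts, and each library left out. The gene lists and the comparison were chosen with earlier results of these data known. Named genes were the 12 DEGs a direction with the smallest p and no overlap, the 5 a direction with the highest level, 6 a direction at 3 counts or fewer in each library of 1 group, the 3 a direction with the smallest p in each list with further members where a list is described, the 4 a direction with the smallest interaction p among DEGs, the 3 a direction with the widest replicate range, and Tlr9, Irf4, Prdm1, Pax5, Bach2, Myc, Cd86, Il6, Il10, Mtor, Isg15, Usp18 and Cdkn1a. Some genes that this rule names are not reported here.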

Additional observations from a re-analysis of the deposited data

Results flagged for a closer look

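For 8 named genes the effect of CpG with IFNα differed from its effect without IFNα in edgeR's interaction test, with all 3 libraries of each group in the fit. The log2 effect with IFNα minus the effect without it was 4.63 for Jun, 3.65 for Sik1, 2.91 for Kdm6b and 2.60 for Myc, and it was -2.60 for Id3, -2.60 for Klhl6, -2.09 for Msmo1 and -1.93 for Ms4a4c. Jun, Sik1 and Kdm6b were lower in every IFNα library than in every unstimulated library, and Myc was as well, whereas Id3, Msmo1 and Ms4a4c were higher in every one, and Klhl6 was at 124 to 145 CPM with IFNα and at 95.5 to 124 CPM unstimulated. For the genes other than Klhl6 the level without CpG therefore differed between the settings compared, and the absence of a culture time for the unstimulated cells is a limit of the labels. These genes were named for having the smallest p in that test among the DEGs.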

How the results depend on the processing

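None of the 176 named genes followed under the alternatives reversed its direction. Further members given where a list is described, such as Rfxap, Vars and Sqle, were not followed. With each library left out in turn, DEGs higher with CpG numbered 1802 to 1916 and lower ones 2415 to 2609 with IFNα present, 1911 to 2022 and 2445 to 2619 without it, and genes with a higher or lower effect in the presence of IFNα numbered 248 to 391 and 209 to 330. At a cutoff of 2 on the log2 scale the counts became 536 and 1162 with IFNα, 539 and 1138 without, and 96 and 59 for the difference in effect, because fewer genes pass the size. The split of genes with a higher or lower effect, 291 and 299, was 330 and 231 with library size only, 343 and 231 without mitochondrial, rRNA and ribosomal protein genes, 366 and 237 with no filter and 246 and 193 in DESeq2 (the cause was not tested), so which side was larger depended on the setting. DESeq2 gave 1762 and 2425 DEGs. With the replicate block, which follows the pairing of the libraries, 1764 genes rose and 2411 fell with IFNα, 1898 and 2407 without it, and 312 and 315 differed in effect. It shared 4161 of the 4175 DEGs and changed no call of a gene that was followed. Over the remaining alternatives DEGs ranged from 1324 to 2376 higher (fold change built into the test, no filter on low counts) and from 1951 to 2999 lower. Without replicate 2 of both groups, an alternative chosen after seeing the data, there were 1826 and 2435. Scalings shifted the median of all genes by at most 0.06 and dropping the filter by 0.12. Of 171 named DEGs that were followed, 149 kept their call in all alternatives other than the cutoffs, under which single genes were not followed. The lists for NF-κB, mTORC1 and dendritic cell markers changed the sign of their median, so no direction is given for them. Genes under about 3 counts a library cannot be compared at this depth.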
